A study of Homo sapiens with 9 samples.

Results

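The genes NQO1, GCLM, GCLC, HMOX1, TXNRD1, SRXN1, SLC7A11, AKR1C1 and FTL, well-known targets of the transcription factor NRF2, were followed across every library. They were taken by symbol from the deposited table, so 9 of its 56809 genes are described, and all 9 were among the 14708 genes that passed the filter on low counts. RNA was measured by bulk sequencing in MDA-MB-468, a long-established cell line from a human breast adenocarcinoma. All 3 groups carried a lentiviral construct: the control cells the empty vector pSicoR, the others the short hairpin shLMO2-1 or shLMO2-2, both named for the transcriptional cofactor LMO2. Each group had 3 libraries, made from harvests of 200000 cells. The labels give no time after infection and do not say whether the libraries of a group came from separate cultures, so p-values measure the spread between these libraries, which may be technical.

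NRF2, encoded by NFE2L2, is held low in unstressed cells by KEAP1, which presents it for degradation. Oxidants and electrophiles modify KEAP1, NRF2 then accumulates, pairs with a small MAF protein and binds the antioxidant response element near its target genes, where BACH1 can compete for the same element. The targets make glutathione, reduce thioredoxin and peroxiredoxin, detoxify quinones and carbonyls, and handle heme and iron, and tumours with an active pathway are known for resistance to oxidative stress.

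Library totals lay between 15494486 and 23069456 estimated counts, and mitochondrial genes took 1.331% to 1.794% of them. The epithelial markers EPCAM, KRT8, KRT18, CDH1 and EGFR were all detected. PGR was listed at 0 in every library, COL1A2 in 8 of 9, and PTPRC stayed at or below 0.348 CPM (a gene's count scaled to a common library size). Over the mean of both hairpins KRT8, KRT18 and EGFR were called higher by edgeR (log2 0.43, 0.36 and 0.29). ESR1, at 2.47 to 6.1 CPM, was called lower (log2 -0.78). EPCAM and CDH1 leaned lower and were not called, though each had an unadjusted p under 0.05. EPCAM averaged 432 CPM in the controls, 389 with shLMO2-1 and 407 with shLMO2-2. CDH1 went from a mean of 317 CPM to 295 with shLMO2-1 and 287 with shLMO2-2, and all 6 hairpin libraries lay below every control. The part of these markers in the results was not tested. Control replicate 1 stood apart on the first principal component, at -35.9 against -12.6 and -15 for the other controls and values above these in all 6 hairpin libraries. Replicate 1 was also the lowest of its group with shLMO2-1 (-0.7 against 5.9 and 18) and with shLMO2-2 (5.6 against 12 and 22.8). Its mitochondrial share was the highest of each group, at 1.671%, 1.756% and 1.794% in control, shLMO2-1 and shLMO2-2. The cause of this order by replicate was not tested. LMO2 itself was barely detected, with 4, 35 and 19 counts in the controls, 2, 1 and 6 with shLMO2-1 and 1, 4 and 3 with shLMO2-2. It failed the filter and was not tested, and control replicate 1 lay within the range of the hairpin libraries.

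The core of the antioxidant response element, TGACNNNGC, was looked for on both strands in the 250 bases before the RefSeq start sites of the targets (GRCh38.p14). NQO1, GCLM, GCLC, TXNRD1, SRXN1, AKR1C1 and FTL had 8 such windows, since TXNRD1 has a pair of start sites, and HMOX1 and SLC7A11 had no entry. The matches, in capitals with 10 bases on either side, are shown because they mark where the letters NRF2 is known to bind stand close to a start. GCLM lies on the minus strand and its window is chr1:93909446-93909474. The TXNRD1 windows, on the plus strand, are chr12:104215670-104215698 for the upstream start and chr12:104286920-104286948 for the downstream one. All are written 5′ to 3′ along the gene's strand.
GCLM: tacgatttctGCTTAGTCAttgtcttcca
TXNRD1 upstream start: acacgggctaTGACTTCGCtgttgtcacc
TXNRD1 downstream start: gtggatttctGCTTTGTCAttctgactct
The GCLM match lay 26 to 34 bases before the start, on the opposite strand, where it reads TGACTAAGC. The TXNRD1 matches lay 91 to 99 bases before the upstream start, as the gene reads, and 94 to 102 bases before the downstream start, on the opposite strand (TGACAAAGC). Of all 35116 promoters in the same table, 10.91% held the motif, against 3 of the 8 windows of these targets. None of the 3 overlapped the AP-1 motif TGANTCA, which shares letters with the element. Of these 2 genes with a match, GCLM fell with both hairpins and TXNRD1 passed the test with neither, as given next. The windows of NQO1, GCLC, SRXN1, AKR1C1 and FTL held no match, which says only that these letters are not in those 250 bases.

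The comparison of each hairpin with the empty vector asks how the transcriptome changes when LMO2 is targeted. With shLMO2-1, GCLM, GCLC and AKR1C1 fell, by 24.3%, 22.1% and 27.8%, and none was called higher, though TXNRD1 and FTL had an unadjusted p under 0.05 and DESeq2 called TXNRD1 (adjusted p = 0.0282). With shLMO2-2, GCLM and GCLC fell, by 17.6% and 15.7%. Over the mean of both hairpins 5 of the 9 changed: GCLM, GCLC, SRXN1 and AKR1C1 fell and FTL, the ferritin light chain, rose by 24.9%. These calls are those of edgeR's quasi-likelihood test with Benjamini-Hochberg adjustment over all tested genes, at an adjusted p under 0.05. Among all tested genes, 3.88% were called lower and 4.54% higher with shLMO2-1, 4.03% lower and 4.94% higher with shLMO2-2, and 5.92% lower and 6.46% higher over the mean. Both comparisons use the same 3 controls, so a call in both is not independent evidence. The 3 calls with shLMO2-1, and those of GCLM and GCLC over the mean, held whichever library was left out, control replicate 1 included. In bulk RNA, fewer cells of a kind and less RNA per cell cannot be told apart.

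**Figure D1:**
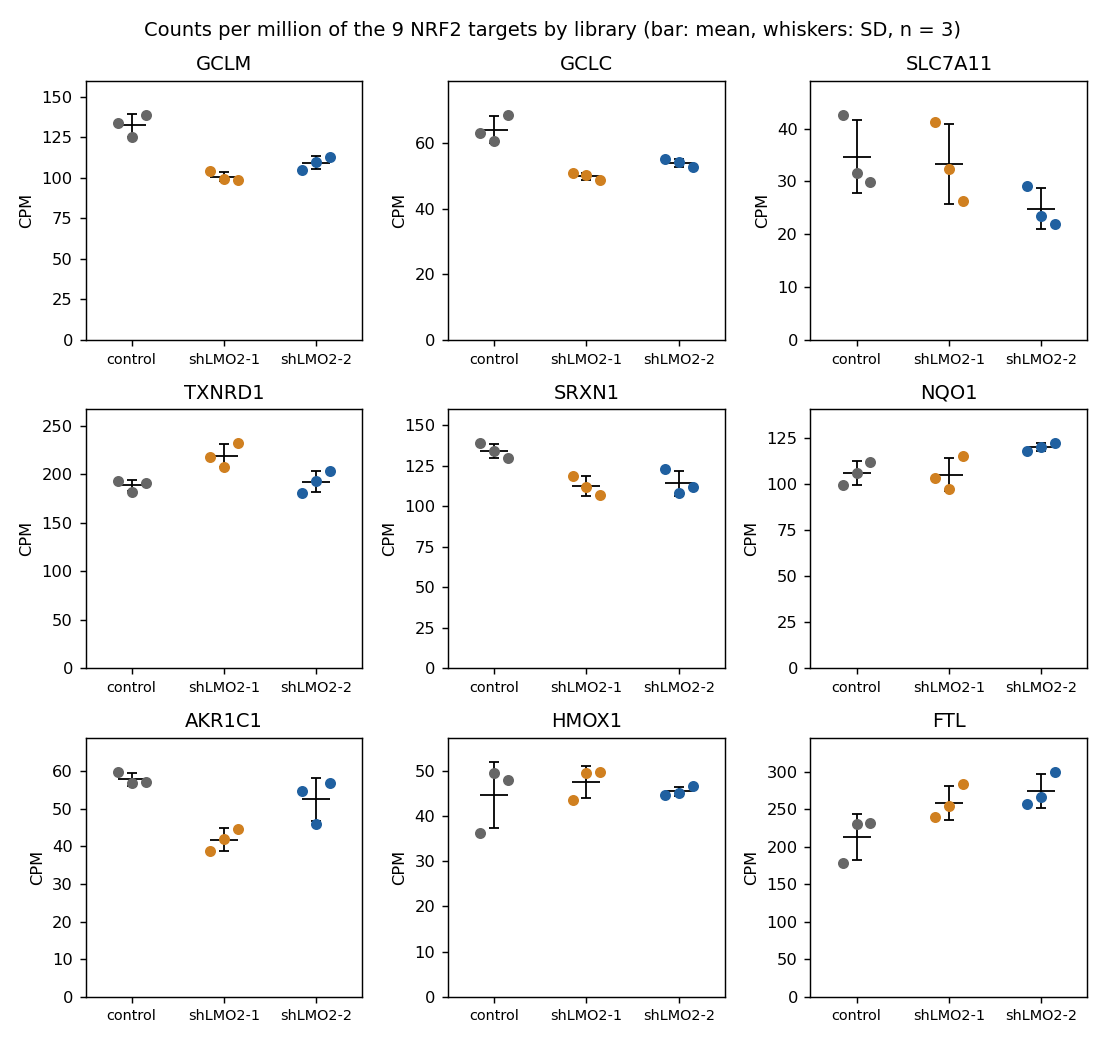
Level of each of the 9 NRF2 targets (CPM, vertical axis starting at 0) in each of the 9 libraries by group; points are libraries, bars group means and whiskers SDs. For GCLM and GCLC all 6 hairpin libraries lie below all 3 controls, for FTL all 6 lie above, and for HMOX1 the groups overlap.

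Glutathione is made from cysteine, glutamate and glycine, and the first, rate-limiting step belongs to glutamate-cysteine ligase. GCLM, its modifier subunit (chr1:93885205-93909456, minus strand, GENCODE 29, GRCh38), stood at 134, 125 and 139 CPM in the controls, at 104, 99.6 and 98.6 CPM with shLMO2-1 and at 105, 110 and 113 CPM with shLMO2-2. All 6 hairpin libraries lay below the lowest control, and the shLMO2-1 libraries lay below those of shLMO2-2. The group means were 133 ± 7.1, 101 ± 2.72 and 110 ± 4.06 CPM (SD, n = 3 each). GCLM had a log2 fold change of -0.40 (SE 0.0634, adjusted p = 0.00392, edgeR's quasi-likelihood test) with shLMO2-1 and -0.28 (SE 0.063, adjusted p = 0.0217) with shLMO2-2. GCLM in shLMO2-2 lost its call when control replicate 3 was left out (adjusted p = 0.0877), as it did when replicate 1 (0.0711) or 2 (0.0729) of shLMO2-2 was.

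GCLC, the catalytic subunit of the same ligase (chr6:53497341-53616970, minus strand), had the same order of groups. Its levels were 63.1, 60.6 and 68.7 CPM in the controls, 50.8, 50.4 and 48.7 CPM with shLMO2-1 and 55.1, 54.4 and 52.7 CPM with shLMO2-2. No hairpin library reached the lowest control. The means were 64.1 ± 4.17, 49.9 ± 1.13 and 54.1 ± 1.25 CPM (SD, n = 3 each). GCLC had a log2 fold change of -0.36 (SE 0.0685, adjusted p = 0.0105) with shLMO2-1 and -0.25 (SE 0.0678, adjusted p = 0.0464) with shLMO2-2, again by edgeR's quasi-likelihood test. The call with shLMO2-2 was lost in 8 of the 9 fits that left out 1 library, all but that without control replicate 2, with adjusted p from 0.0509 to 0.16. It was also lost with only the groups compared (0.0875) and with no filter on low counts (0.114).

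The ratio of the subunits moved little. GCLC over GCLM was taken as the log2 ratio of rounded counts, each + 0.5, within a library. It differed from control by 0.04 with shLMO2-1 and by 0.03 with shLMO2-2, against SDs within groups of 0.02 to 0.09. The exact permutation tests, two-sided, gave p = 0.3 and p = 0.6, and both adjusted values over the 20 ratio tests run were above 0.6. With 3 libraries against 3 such a test cannot go below 0.1. The difference in either group was no larger than the widest spread between libraries.

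SLC7A11, the cystine importer subunit that supplies cysteine for glutathione (chr4:138164097-138242349, minus strand), had the largest SD relative to its mean of the 9 targets in each group. It stood at 42.6, 31.6 and 29.8 CPM in the controls, 41.3, 32.3 and 26.2 CPM with shLMO2-1 and 29.2, 23.4 and 21.9 CPM with shLMO2-2. Replicate 1 was the highest in each group, the shLMO2-1 libraries overlapped the controls, and all 3 shLMO2-2 libraries lay below the lowest control, 1 of them narrowly. The log2 fold change was -0.05 (95% interval -0.45 to 0.34, adjusted p = 0.898, edgeR) with shLMO2-1 and -0.48 (-0.88 to -0.08, adjusted p = 0.128) with shLMO2-2. Neither passed the test, though SLC7A11 with shLMO2-2 was called with no filter on low counts (adjusted p = 0.00345). Without control replicate 1 that value was -0.31 and not called. SLC3A2, the heavy chain that carries SLC7A11 to the membrane, had a mean of 403 ± 38.3 CPM in the controls, 350 ± 10.9 CPM with shLMO2-1 and 351 ± 23.9 CPM with shLMO2-2. Its log2 fold change over the mean of both was -0.20 (adjusted p = 0.0692, edgeR). That change was called in 4 of 8 alternative fits, DESeq2 among them (adjusted p = 0.0383), and in 2 of 9 with 1 library left out.

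TXNRD1, thioredoxin reductase 1, returns thioredoxin to its reduced form with NADPH (chr12:104215779-104350305, plus strand). Its levels were 193, 182 and 191 CPM in the controls, 218, 208 and 232 CPM with shLMO2-1 and 181, 193 and 203 CPM with shLMO2-2. The shLMO2-1 libraries lay above all controls and all shLMO2-2 libraries, while the latter overlapped the controls. The log2 fold change was 0.22 (SE 0.0658, adjusted p = 0.0659, edgeR's quasi-likelihood test) with shLMO2-1 and 0.03 (SE 0.0656, adjusted p = 0.834) with shLMO2-2, so neither passed. Its substrate gene TXN had 134 ± 3.34, 148 ± 3.01 and 155 ± 12.8 CPM in control, shLMO2-1 and shLMO2-2 (SD, n = 3 each), and a log2 fold change of 0.18 over the mean (adjusted p = 0.0752, edgeR). TXN was called in 2 of 8 alternative fits, DESeq2 among them (adjusted p = 0.0498), and in 0 of 9 with 1 library left out.

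SRXN1, sulfiredoxin, repairs over-oxidised peroxiredoxins (chr20:646615-653370, minus strand). It stood at 139, 134 and 130 CPM in the controls, 119, 112 and 107 CPM with shLMO2-1 and 123, 108 and 112 CPM with shLMO2-2, so every hairpin library lay below every control. Over the mean of both hairpins SRXN1 fell by 15.4%, a log2 fold change of -0.24 (SE 0.0602, adjusted p = 0.0253, edgeR's quasi-likelihood test). Against control alone it was -0.25 (adjusted p = 0.0512, edgeR) with shLMO2-1 and -0.23 (adjusted p = 0.0645) with shLMO2-2, both just short of the threshold. With shLMO2-1 it was called in 6 of 10 alternative fits, DESeq2 among them (adjusted p = 0.0141). With shLMO2-2 it was called in 3 of 10, again with DESeq2 (adjusted p = 0.0236). Neither was called in any of the 9 fits with 1 library left out. The call over the mean was lost in 7 of the 9 fits with 1 library left out, at adjusted p of 0.0503 to 0.0602, and kept without shLMO2-1 replicate 1 or shLMO2-2 replicate 1. Of the 31-base words of SRXN1 transcripts, 84.86% also occur in the overlapping gene AL121758.1, which was listed at 0 in every library, so reads of the pair cannot be told apart.

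NQO1, a quinone reductase often used as a readout of NRF2 activity, passed the test with neither hairpin (chr16:69706996-69726951, minus strand). Its levels were 99.2, 106 and 112 CPM in the controls, 103, 97.2 and 115 CPM with shLMO2-1 and 118, 120 and 122 CPM with shLMO2-2. The shLMO2-1 libraries overlapped the controls, and the shLMO2-2 libraries lay above both other groups. The log2 fold change was -0.01 (95% interval -0.17 to 0.16, adjusted p = 0.973, edgeR) with shLMO2-1 and 0.19 (0.02 to 0.35, adjusted p = 0.151) with shLMO2-2.

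AKR1C1, an aldo-keto reductase that reduces carbonyls and steroids (chr10:4963253-4983283, plus strand), had the largest fall of the 9 with shLMO2-1. It stood at 59.8, 56.7 and 57.0 CPM in the controls, 38.7, 42.0 and 44.6 CPM with shLMO2-1 and 54.8, 46.0 and 56.7 CPM with shLMO2-2. The shLMO2-1 libraries lay below all others, and the shLMO2-2 libraries reached the level of the lowest control. The log2 fold change was -0.47 (SE 0.0909, adjusted p = 0.0111, edgeR's quasi-likelihood test) with shLMO2-1, -0.14 (SE 0.0894, adjusted p = 0.368) with shLMO2-2 and -0.31 (adjusted p = 0.0269) over the mean. The value with shLMO2-2 was -0.06 when its replicate 2 was left out. The call over the mean was lost without control replicate 1 (adjusted p = 0.055), 2 (0.0537) or 3 (0.0784), and without shLMO2-1 replicate 1 (0.0547) or 2 (0.0529).

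The counts of AKR1C1 are uncertain, because 33.05% of its 31-base words occur in its neighbour and near copy AKR1C2, another aldo-keto reductase and NRF2 target. Those of AKR1C2 are uncertain as well, since 59.47% of its words occur in AKR1C1. AKR1C2 stood at 106, 111 and 112 CPM in the controls, 56.9, 59.7 and 65.1 CPM with shLMO2-1 and 69.8, 65.6 and 76.2 CPM with shLMO2-2, well below the controls in all 6 hairpin libraries. AKR1C2 fell with both, with a log2 fold change of -0.86 (adjusted p = 0.000135, edgeR) with shLMO2-1 and -0.64 (adjusted p = 0.000813) with shLMO2-2. Summed, the pair had a log2 fold change of -0.71 (adjusted p = 0.000396, edgeR) with shLMO2-1 and -0.45 (adjusted p = 0.00599) with shLMO2-2. The sum was thus called with both hairpins, while AKR1C1 alone was called only with shLMO2-1. The share of AKR1C1 in the sum of counts was 36.0%, 33.9% and 33.7% in the controls, 40.5%, 41.3% and 40.7% with shLMO2-1 and 44.0%, 41.2% and 42.7% with shLMO2-2. The share was higher in every hairpin library, and how much of it reflects the division of shared reads was not tested.

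**Figure D2:**
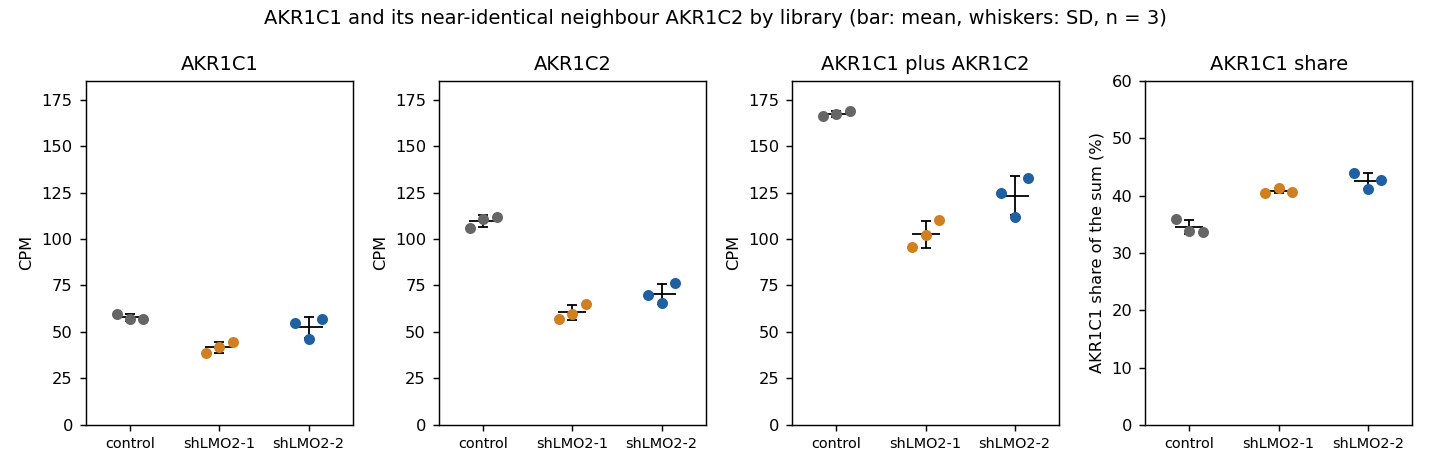
Levels of AKR1C1, AKR1C2 and their sum (CPM, axis from 0) in each library by group. The sum lies at 166 to 169 CPM in the controls, 95.6 to 110 CPM with shLMO2-1 and 112 to 133 CPM with shLMO2-2, with no overlap between groups.

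HMOX1, heme oxygenase 1, breaks heme down to biliverdin, carbon monoxide and iron (chr22:35380361-35394214, plus strand). Its levels were 36.2, 49.5 and 48.0 CPM in the controls, 43.5, 49.5 and 49.8 CPM with shLMO2-1 and 44.7, 45.2 and 46.6 CPM with shLMO2-2. All groups overlapped, and control replicate 1 was the lowest library. The log2 fold change was 0.09 (95% interval -0.15 to 0.34, adjusted p = 0.659, edgeR) with shLMO2-1 and 0.03 (-0.21 to 0.27, adjusted p = 0.9) with shLMO2-2. Without control replicate 1 the values were -0.04 and -0.11, so no direction can be given.

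FTL, the light chain of the iron store ferritin (chr19:48965301-48966878, plus strand), was the one target that rose. It stood at 178, 230 and 231 CPM in the controls, 239, 254 and 283 CPM with shLMO2-1 and 257, 266 and 300 CPM with shLMO2-2, above the highest control in all 6 hairpin libraries. The log2 fold change was 0.32 (SE 0.0934, adjusted p = 0.0465, edgeR's quasi-likelihood test) over the mean, with 0.28 (adjusted p = 0.136) for shLMO2-1 and 0.36 (adjusted p = 0.0586) for shLMO2-2. Control replicate 1 was the lowest library, and without it the change over the mean was 0.20 (adjusted p = 0.115). The call was lost in 8 of the 9 fits with 1 library left out, all but that without shLMO2-1 replicate 1, at adjusted p of 0.0501 to 0.115, and with upper-quartile scaling (0.0547). FTL also shares 29.95% of its 31-base words with the pseudogene FTLP3. Summed with its pseudogenes, FTL had a log2 fold change of 0.32 over the mean (adjusted p = 0.0474, edgeR). The sum was at 0.28 (adjusted p = 0.139) with shLMO2-1 and 0.36 (adjusted p = 0.0602) with shLMO2-2, so no call changed.

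FTH1, the heavy chain that oxidises the stored iron, had means of 2670 ± 196, 2950 ± 133 and 3010 ± 99.4 CPM in control, shLMO2-1 and shLMO2-2 (SD, n = 3 each), and a log2 fold change of 0.16 over the mean (adjusted p = 0.0747, edgeR), or 0.09 without control replicate 1. Of the 31-base words of FTH1, 48.05% also occur in the overlapping gene BEST1 and 22.05% in FTH1P10. Its counts, and the ratio that uses them, are therefore uncertain. The ratio of FTL over FTH1 differed from control by 0.17 on the log2 scale over both hairpins. The exact permutation test, two-sided, gave p = 0.0238, the smallest that 6 libraries against 3 allow, and an adjusted p of 0.333 over the 20 ratio tests. None of the 20 passed the adjustment.

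**Figure D3:**
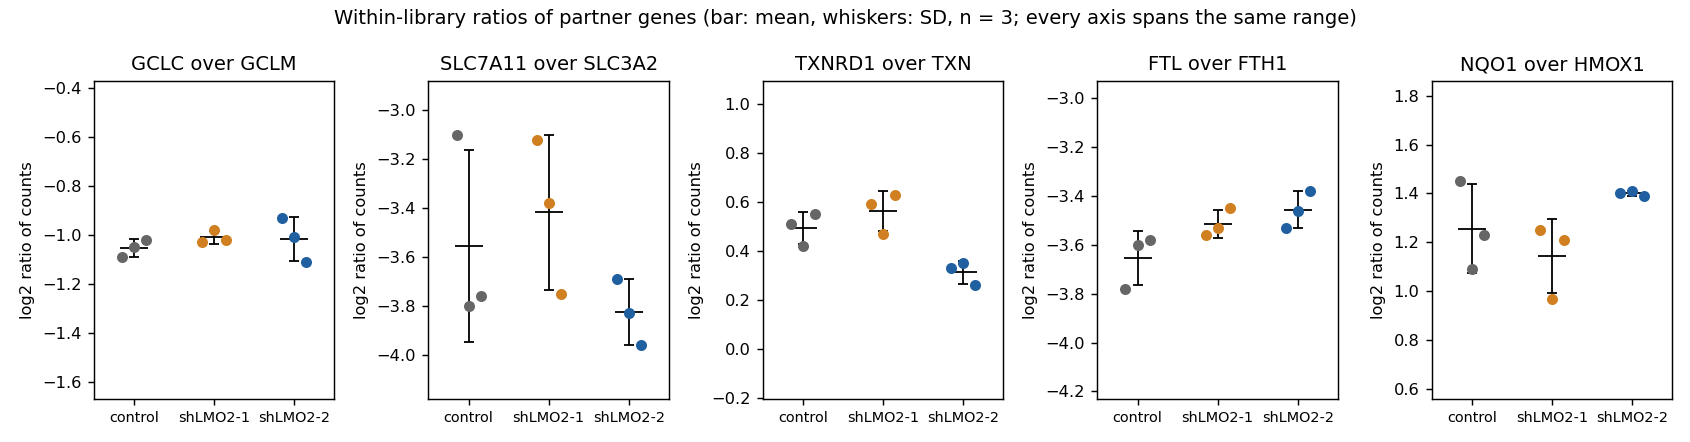
Within-library log2 ratios of 5 pairs of genes that work together or serve as readouts, by group; points are libraries, bars means and whiskers SDs, and all axes span the same range. GCLC over GCLM differed by 0.04 or less in size between any groups, and the TXNRD1 over TXN ratio of shLMO2-2 lay 0.25 below that of shLMO2-1.

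Read by libraries alone, 4 targets lay wholly below the controls and 2 wholly above with shLMO2-1, where 14.3% and 14.0% of all tested genes did so. With shLMO2-2 it was again 4 below and 2 above, where 14.5% and 15.3% did. In both hairpins at once GCLM, GCLC and SRXN1 lay below and FTL above, where 8.59% and 8.12% of genes did. Over the 9 targets the median log2 fold change was -0.05 with shLMO2-1, -0.14 with shLMO2-2 and -0.24 over the mean, where the medians of all genes were 0.001, 0 and -0.002. The median size of the change, regardless of sign, was 0.25, 0.23 and 0.27, against 0.17, 0.17 and 0.16 for all genes.

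The 2 hairpins were then compared with each other. None of the 9 targets differed by edgeR's quasi-likelihood test, where 0.768% of all genes were called, and DESeq2 and limma-voom called none either. At an unadjusted p under 0.05 there were 4. AKR1C1 was higher in shLMO2-2 by 0.33 on the log2 scale (95% interval 0.13 to 0.53, adjusted p = 0.162, edgeR) and NQO1 by 0.19 (0.03 to 0.36, adjusted p = 0.376). TXNRD1 was at -0.19 (-0.33 to -0.05, adjusted p = 0.303) and SLC7A11 at -0.42 (-0.83 to -0.02, adjusted p = 0.428). NQO1, GCLM, GCLC and AKR1C1 lay wholly above shLMO2-1 in the shLMO2-2 libraries and TXNRD1 wholly below, where 8.97% and 9.12% of genes did so. The intervals for GCLM (-0.02 to 0.26) and GCLC (-0.04 to 0.26) include 0 near their lower end. Those of SRXN1 (-0.14 to 0.17), HMOX1 (-0.31 to 0.18) and FTL (-0.15 to 0.32) include 0 and differences of either sign.

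**Figure D4:**
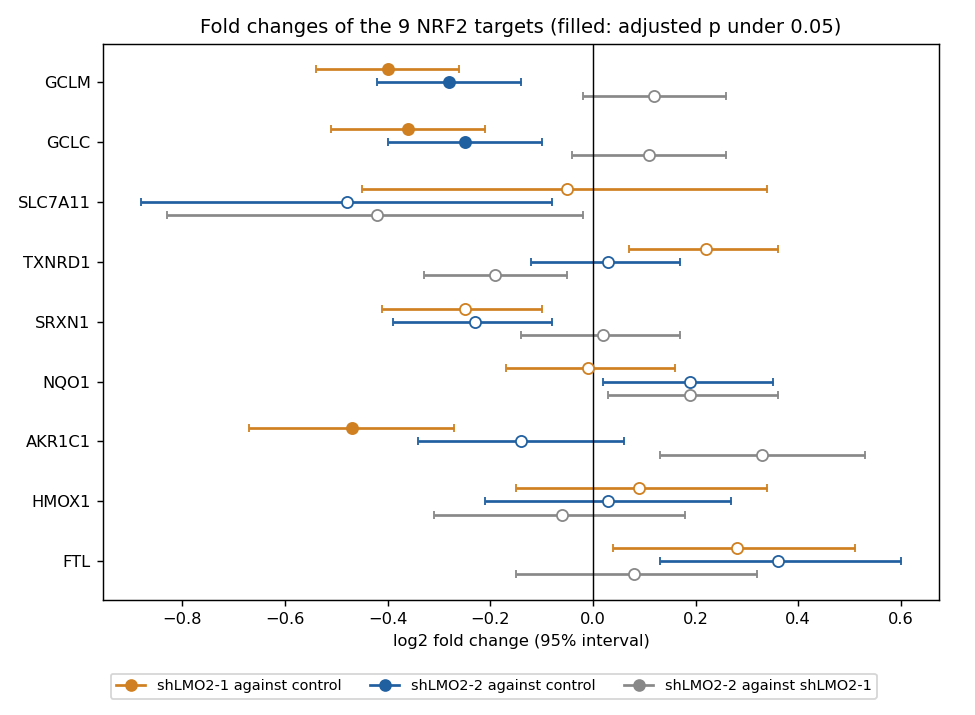
Log2 fold changes of the 9 NRF2 targets with 95% intervals for each hairpin against control and for shLMO2-2 against shLMO2-1; filled points have an adjusted p under 0.05. Filled points are GCLM and GCLC for both hairpins and AKR1C1 for shLMO2-1, and no comparison between the hairpins is filled.

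Per kilobase of transcript, a scale on which genes can be set side by side, FTL had the highest control level of the 9, at 243 CPM per kb, followed by NQO1 at 104. SRXN1 (49.8) and TXNRD1 (49.2) came next and were close to each other, then GCLM at 33.8, HMOX1 at 24.5, GCLC at 18.2, AKR1C1 at 15.3 and SLC7A11 at 3.59 CPM per kb. The order depends on the transcript used. With the longest or the shortest annotated transcript NQO1 spanned 36.3 to 119 CPM per kb and AKR1C1 8.63 to 67.4. By the median transcript length GCLM, the modifier, stood above GCLC, the catalytic subunit, in the control cells. With the longest or the shortest transcript GCLM spanned 27.4 to 44.2 CPM per kb and GCLC 16.8 to 35.6. These ranges overlap, so the order of the subunits also depends on the transcript.

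The genes that control the pathway were read next. NFE2L2, encoding NRF2, had 161 ± 8.15, 161 ± 7.44 and 148 ± 6.19 CPM in control, shLMO2-1 and shLMO2-2 (SD, n = 3 each), a log2 fold change of -0.06 over the mean (95% interval -0.18 to 0.06, adjusted p = 0.528, edgeR). KEAP1 had 221 ± 30.7, 222 ± 18.1 and 220 ± 11.6 CPM, and its change was 0 (-0.19 to 0.19, adjusted p = 0.996, edgeR). The values for BACH1 and the small MAF gene MAFG were 0.07 (adjusted p = 0.474) and -0.03 (adjusted p = 0.911). Of 18 regulators and partners 2 fell over the mean and 16 were not called, where 5.92% of all tested genes were called lower and 6.46% higher, so the count is near that of genes at large. In each of the 8 alternative fits that kept all libraries 3 of the 18 were called. Those fits called 1787 to 3023 of all genes, against 1821 here. MAFF, another small MAF, fell by 29.7%, from 31.9 ± 3.87 to 24.8 ± 2.23 and 20.3 ± 0.567 CPM (log2 -0.51, adjusted p = 0.0051, edgeR), and NFE2L3, a relative of NRF2, by 18.5% (log2 -0.30, adjusted p = 0.00877). The call of NFE2L3 was lost without control replicate 3 (adjusted p = 0.0544). RNA levels do not report how much NRF2 protein was present.

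A wider list of 38 further NRF2 targets, of which 36 passed the filter and GPX2 and NR0B1 did not, split in both directions. Over the mean of both hairpins 8 fell, 3 rose and 25 were not called, with a median log2 fold change of -0.01. Among all tested genes 5.92% were lower and 6.46% higher, so the 3 that rose are near that share and the 8 that fell are above it. The list was chosen with earlier results of these data known, so these counts describe the list and are no test of it. The falls with the smallest p were these. GSTM3, a glutathione transferase, went from 141 ± 23.3 CPM to 67.5 ± 2.38 with shLMO2-1 and 60.7 ± 4.56 with shLMO2-2 (log2 -1.14, adjusted p = 4.32e-05, edgeR's quasi-likelihood test). AKR1C2, described above with the limit on its counts, came next. TRIM16L (-0.51, adjusted p = 0.00131, edgeR) and TRIM16 (-0.33, adjusted p = 0.00937) followed. The counts of these 2 are also uncertain, because 47.08% of the 31-base words of TRIM16 occur in TRIM16L. ME1, the malic enzyme that makes NADPH, fell by 15.3% (log2 -0.24, adjusted p = 0.0139), and MGST1, a membrane glutathione transferase, by 14.6% (log2 -0.23, adjusted p = 0.0228). MGST1 was not called without control replicate 2 (adjusted p = 0.0677) or 3 (0.101).

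The 3 that rose were ABCC3, an exporter of conjugates, from 12.3 ± 1.09 to 23.7 ± 2.34 and 20.7 ± 1.32 CPM (log2 0.85, adjusted p = 0.000533, edgeR), AKR1B1, aldose reductase, from 154 ± 22.2 to 232 ± 16.4 and 246 ± 20.5 CPM (log2 0.64, adjusted p = 0.00175), and SLC48A1, a heme transporter, from 11.2 ± 2.7 to 20.0 ± 1.65 and 17.0 ± 1.56 CPM (log2 0.71, adjusted p = 0.00993). In each hairpin alone the list had 11 lower and 3 higher genes with shLMO2-1, and 3 lower and 4 higher with shLMO2-2. Of all genes 3.88% were lower and 4.54% higher with shLMO2-1, and 4.03% and 4.94% with shLMO2-2. The 11 lower with shLMO2-1 stand furthest from the share at large, with the same limit from how the list was chosen. No gene of the list was called between the hairpins by edgeR, while 9 had an unadjusted p under 0.05, and DESeq2 called 2 and limma-voom 0, so the difference in counts is not a tested difference.

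**Figure D5:**
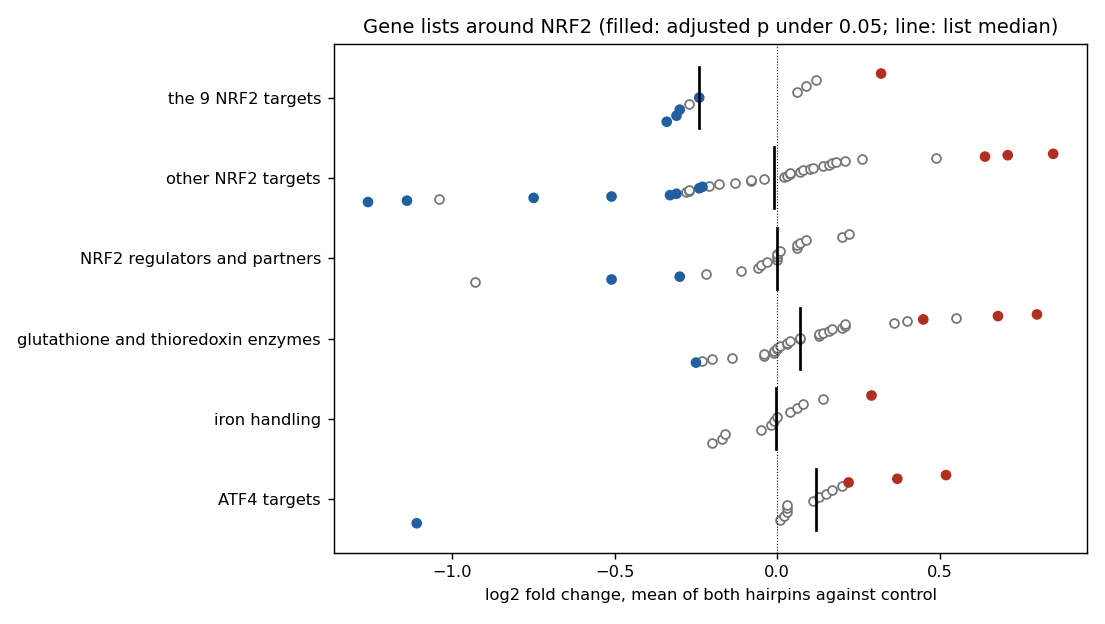
Log2 fold changes over the mean of both hairpins for the genes of each list; each point is a gene, filled points have an adjusted p under 0.05 (blue lower, red higher) and the vertical bar is the list's median. The 9 NRF2 targets have a median of -0.24, the other NRF2 targets -0.01 and the ATF4 targets 0.12.

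Among 30 tested enzymes of glutathione and thioredoxin metabolism outside the 9, 3 rose, 1 fell and 26 were not called, with a median of 0.07, a count near the 6.46% higher and 5.92% lower of all genes. GSTP1, another glutathione transferase, rose from 33.8 ± 5.89 to 52.9 ± 4.75 CPM with shLMO2-1 and 65.6 ± 6.61 with shLMO2-2 (log2 0.80, adjusted p = 0.00161, edgeR), opposite to GSTM3. GSTZ1 (0.68, adjusted p = 0.00714) and the mitochondrial glutaredoxin GLRX5 (0.45, adjusted p = 0.00757) rose as well. SOD2, the mitochondrial superoxide dismutase, fell by 15.9% (log2 -0.25, adjusted p = 0.0134). Of 12 tested genes of iron handling 1, the iron importer SLC11A2, was called, again near the share of all genes, higher at 0.29 (adjusted p = 0.0186, edgeR), and that call was lost without control replicate 1 (0.0511) or 3 (0.0619).

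SLC7A11 is also a target of ATF4, the factor of the amino acid response, so 14 genes of that response were read beside it. Over the mean of both hairpins 3 rose, 1 fell and 10 were not called, with a median of 0.12, where 6.46% of all genes were higher and 5.92% lower. SLC7A5, an amino acid transporter, rose by 29.1% (log2 0.37, adjusted p = 0.00108, edgeR), DDIT4 by 43% (log2 0.52, adjusted p = 0.0131) and ATF4 itself by 16.4% (log2 0.22, adjusted p = 0.0231). ATF3, a stress-induced repressor, went from 69.0 ± 3.96 to 32.1 ± 0.722 and 31.9 ± 1.94 CPM, and so fell by 53.7% (log2 -1.11, adjusted p = 5.02e-06, edgeR). ATF4 lost its call when control replicate 1 (adjusted p = 0.0637) or 3 (0.0646) was left out, and when replicate 2 of shLMO2-2 was (0.0543).

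The genes whose levels ran most like each called target were sought among 11030 genes over the 9 libraries, by the root mean square difference of centred log2 CPM. For GCLM they were HEATR1 (0.0462), GCLC (0.0488) and NOL6 (0.0519), and for GCLC they were GCLM, PRC1 (0.0543) and GNL2 (0.0546), so the subunits of the ligase were among each other's nearest 3. For SRXN1 they were GGPS1 (0.038), PPM1B (0.0417) and POT1 (0.0421), and for FTL they were MAPKAPK3 (0.0262), GAPDH (0.036) and HMG20B (0.0369). AKR1C1 had none as close, with UST (0.0725), CAPN10 (0.076) and PLK2 (0.0884). Apart from the ligase subunits none of these genes is among the 9 targets, and the likeness is a description over libraries that share groups and depth.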

How the data were processed

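The authors deposited 1 table of estimated counts per gene symbol for the 9 libraries, of which 11.67% to 12.81% of values per library were not whole. Per the submitters' processing notes, Salmon 0.12, DESeq2 1.22.2 and the build GRCh38.p12 were used, with roles not given in the sources used here, nor the use of strand. Per the labels' protocols, polyadenylated RNA was selected. Counts were rounded and tested with edgeR 4.0.16 (R 4.3.3) by a quasi-likelihood fit over all 3 groups, with TMM scaling, filterByExpr (minimum count 10, minimum total 15) and Benjamini-Hochberg adjustment over 14708 genes, holding 99.91% of the counts. CPM uses TMM-scaled totals. Ratios use log2 of rounded counts + 0.5 and exact permutation tests with SciPy 1.17.1. Intervals are at 95%. Coordinates and transcripts are from GENCODE 29 by symbol, and promoters from RefSeq. The fits were tested on simulated data whose changes were all larger than those called for the 9 targets. That simulation therefore does not show how well changes of the size called here are recovered. DESeq2 1.42.0, limma-voom (limma 3.58.1), other scalings and filters, a replicate block and leaving out each library were tried as alternatives. Same-numbered libraries were not taken as pairs.

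The 9 targets and all lists were chosen with earlier results of these data known. Named genes were the 9 targets, NFE2L2, KEAP1, BACH1, MAFG and the ratio partners, up to 6 called genes per direction with the smallest p over the mean of both hairpins from the wider target list and up to 4 from each other list, the 3 genes most similar to each called target (from a mean of 5 CPM upwards), and near copies. SLC7A11 lies opposite SLC7A11-AS1 and NQO1 opposite AC092115.2, and without known strand use their reads cannot be told apart.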

Additional observations from a re-analysis of the deposited data

How the results depend on the processing

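Of 331 values of the 9 targets under alternatives other than leaving out a library, 304 kept direction and side of the threshold, 22 passed it newly, 3 lost it and 2 changed sign. Of 324 values with 1 library left out, 282 were kept, 31 lost the call and 11 changed sign. The calls of GCLM, GCLC and AKR1C1 with shLMO2-1, and of GCLM and GCLC over the mean, held throughout. DESeq2 called 5 targets with shLMO2-1 and 4 with shLMO2-2, where edgeR called 3 and 2, and over all genes 1749 and 1836 against 1239 and 1319. With only the groups compared 1 was called with shLMO2-2 (777 of all genes), and with no filter on low counts 1 between the hairpins (378 against 113 of all genes). The cause was not tested.

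The replicate block called 6 targets with shLMO2-1, 5 with shLMO2-2, 6 over the mean, 1 between the hairpins (SLC7A11) and 17 of the wider target list against 11. Over all genes it called 2213 with shLMO2-1, 2375 with shLMO2-2, 3023 over the mean (1821 without it) and 255 between the hairpins, so the gain is general. With it SLC7A11 had an adjusted p of 0.00245 with shLMO2-2 and 0.0165 over the mean (edgeR). The numbers were not taken as pairing, since the labels give none and not every library correlated best with its own number. Of 9 same-numbered pairs of libraries 6 had a correlation of deviations above 0.1, over a range of -0.1 to 0.39. Pairs of replicates 1 and of replicates 3 ran from 0.21 to 0.39, and pairs of replicates 2 from -0.1 to 0.05. Replicate 1 against replicate 3 of another group ran from -0.41 to -0.24. Replicates 1 and 3 thus shared a spread by number across groups, and its cause was not tested.

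Leaving out 1 library gave 3 to 3 called targets with shLMO2-1, 0 to 2 with shLMO2-2, 2 to 4 over the mean, 0 to 0 between the hairpins, 8 to 12 of the wider list and 1 to 2 regulators. Fewer libraries enter each such fit, and over all genes the calls ran from 546 to 1397 with shLMO2-1, 494 to 1243 with shLMO2-2 and 946 to 1592 over the mean. The changes in sign were all of uncalled values. Under total-count scaling HMOX1 and TXNRD1 with shLMO2-2 were both at -0.02. With 1 library left out HMOX1 ran from -0.04 to 0.18 with shLMO2-1, -0.11 to 0.11 with shLMO2-2 and -0.07 to 0.14 over the mean. SLC7A11 with shLMO2-1 ran from -0.24 to 0.11, NQO1 with shLMO2-1 from -0.08 to 0.04, TXNRD1 with shLMO2-2 from -0.02 to 0.06 and SRXN1 between the hairpins from -0.04 to 0.06. KEAP1 over the mean was 0.0 with no filter and with limma-voom and 0.01 with the block, and ran from -0.12 to 0.06 with 1 library left out, as MAFG did from -0.14 to 0.11.

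The ratio GCLC over GCLM ran from -0.01 to 0.08 with shLMO2-2 and -0.05 to 0.04 between the hairpins, SLC7A11 over SLC3A2 from -0.02 to 0.36 with shLMO2-1 and -0.2 to 0.16 over the mean, and NQO1 over HMOX1 from -0.07 to 0.11 over the mean. Sums of SRXN1 with AL121758.1 and of NQO1 with AC092115.2 were added after seeing the data and changed no call.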
